A study of Homo sapiens with 6 samples.

Results

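LINC transcripts, the RNAs of long non-coding RNA (lncRNA) genes whose symbol is LINC and a number, were compared between A549/DDP cells and A549 cells, with 3 libraries of each. A549 is a widely used human lung adenocarcinoma line, and A549/DDP (spelled A549/DPP in the labels) is a cisplatin-resistant line derived from it. Both lines were at passages 6 to 8, and only A549/DDP cells grew with cisplatin (DDP), at 1 µg/mL, so an effect of the drug in the medium cannot be told apart from resistance. The labels name no separate cultures, so p values measure the spread between libraries of a single line, which may be technical. A member is a listed transcript whose gene ID has the type lncRNA and a symbol of LINC followed by digits only in GENCODE 44. Of 81818 listed transcripts, 4678 were members, and they belonged to 2198 of 30061 gene IDs. The value of a transcript is its FPKM, the number of fragments scaled to transcript length and to the mapped fragments of the library, and FPKM was also summed over the listed transcripts of each gene (gene sum). The number of reads is not given with the values, so the depth behind them is unknown and no counting error was computed.

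LINC stands for long intergenic non-protein-coding RNA, a name given to lncRNA genes that mostly lie between protein-coding genes and are not named for a known function. Such genes are mostly transcribed by RNA polymerase II, and many of their RNAs are spliced and polyadenylated without encoding a known protein. Their RNAs are usually scarce and are often made in only a few cell types, and some act on nearby genes, on chromatin or as binding partners of proteins and microRNAs. Several have been studied in lung cancer.

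Promoter windows of 5 LINC genes are shown, since their gene sums passed the test under every processing alternative tried. In addition, a RefSeq start of each lies at or within 17 bases of the 5′ end of a tested transcript. Each window runs from 250 bases before the start to 50 bases after it, on the strand of the gene (RefSeq, GRCh38.p14). They are LINC02747 (chr11:69479908-69480207, minus strand), LINC02212 (chr5:10502679-10502978, minus strand), LINC02418 (chr12:130042293-130042592, minus strand), LINC00941 (chr12:30795431-30795730, plus strand) and LINC00973 (chr3:98980805-98981104, plus strand). The first 3 genes were higher in A549/DDP cells and the other 2 were lower. The LINC00941 start is that of a tested transcript that did not pass and whose libraries overlapped between the lines. LINC00973 also has RefSeq windows farther from its listed transcript, which are not shown. Capitals mark any of 7 motifs searched on both strands, namely the TATA box (TATAAA), the CCAAT box (CCAAT), the GC box (GGGCGG), the AP-1 site (TGANTCA), the cyclic AMP response element (TGACGTCA), the core of the antioxidant response element (TGACNNNGC) and the E-box (CACGTG).
LINC02747: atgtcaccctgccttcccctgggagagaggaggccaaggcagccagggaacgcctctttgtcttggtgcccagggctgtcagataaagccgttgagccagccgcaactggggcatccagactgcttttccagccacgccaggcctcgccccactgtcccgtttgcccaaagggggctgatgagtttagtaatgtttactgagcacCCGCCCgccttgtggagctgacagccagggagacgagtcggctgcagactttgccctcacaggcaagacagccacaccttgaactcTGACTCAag
LINC02212: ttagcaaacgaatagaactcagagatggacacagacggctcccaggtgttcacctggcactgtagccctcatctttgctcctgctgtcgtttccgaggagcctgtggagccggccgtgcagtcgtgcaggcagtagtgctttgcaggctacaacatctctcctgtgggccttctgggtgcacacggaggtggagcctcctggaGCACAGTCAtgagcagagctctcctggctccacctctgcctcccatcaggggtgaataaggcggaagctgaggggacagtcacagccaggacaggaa
LINC02418: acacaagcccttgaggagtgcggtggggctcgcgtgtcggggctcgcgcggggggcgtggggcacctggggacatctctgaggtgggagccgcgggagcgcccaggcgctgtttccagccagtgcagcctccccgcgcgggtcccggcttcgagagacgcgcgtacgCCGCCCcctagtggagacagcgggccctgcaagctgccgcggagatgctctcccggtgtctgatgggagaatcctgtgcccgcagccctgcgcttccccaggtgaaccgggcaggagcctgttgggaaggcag
LINC00941: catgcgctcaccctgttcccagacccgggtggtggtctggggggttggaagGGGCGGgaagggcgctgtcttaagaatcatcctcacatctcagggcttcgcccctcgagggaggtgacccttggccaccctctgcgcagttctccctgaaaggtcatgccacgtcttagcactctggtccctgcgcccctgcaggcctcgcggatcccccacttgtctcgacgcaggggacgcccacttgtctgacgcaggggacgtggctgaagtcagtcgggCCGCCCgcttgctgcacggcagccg
LINC00973: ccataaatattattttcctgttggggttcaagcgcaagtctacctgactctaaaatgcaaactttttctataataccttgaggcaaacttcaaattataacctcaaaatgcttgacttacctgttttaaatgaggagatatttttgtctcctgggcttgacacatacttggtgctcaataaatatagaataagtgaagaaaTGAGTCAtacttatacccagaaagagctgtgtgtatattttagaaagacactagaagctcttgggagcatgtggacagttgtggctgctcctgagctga

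In these windows the GC box was found on the opposite strand 45 bases before the start of LINC02747 and 83 bases before that of LINC02418. LINC00941 had a GC box 199 bases before its start and another, on the opposite strand, 26 bases after it. The AP-1 letters, the site of Fos and Jun proteins, began 49 bases before the start of LINC00973 and 42 bases after that of LINC02747. LINC02212 had the core of the antioxidant response element, the site of NRF2, on the opposite strand 47 bases before its start. A match is a string of letters and not evidence of binding. Of the 35116 RefSeq promoters of all genes, 7.71% held the AP-1 letters, 45.0% the GC box and 13.3% the antioxidant core. Of the 1595 promoters of LINC genes, which cover 1453 members, 13.8%, 18.1% and 15.05% held these motifs in the same order. Among the 148 promoters of tested LINC genes the shares were 12.2%, 43.9% and 17.6%. The LINC promoters had a median GC content of 47.7%, against 58.7% over all promoters. AP-1 letters stood in 6 of the 14 windows of called LINC genes, and 3 of those 6 belonged to LINC00973. The GC box stood in 5 of the 14 and the CCAAT box in 2. The TATA box, the antioxidant core and the E-box stood in 1 each, and the cyclic AMP response element in 0. These shares were not compared by a test.

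Most LINC genes were not detected. Of the 2198 genes, 1527 (69.5%) were listed at 0 in all 6 libraries, and another 492 had values but did not reach 0.5 FPKM in 3 libraries. The remaining 179 gene sums and 260 transcripts, which belonged to 156 genes, were tested. Together the members made up 0.951% to 0.994% of the FPKM of an A549/DDP library (629 to 683 FPKM) and 1.06% to 1.09% of that of an A549 library (613 to 673 FPKM). A549/DDP libraries had 174 to 178 LINC genes at 0.5 FPKM or more, and A549 libraries had 151 to 167. The 10 most abundant genes of a library held 31.7% to 32.1% of its LINC FPKM in A549/DDP cells and 37.5% to 38.2% in A549 cells. The total FPKM of a library was 65142 to 68665 in A549/DDP cells and 58042 to 62589 in A549 cells, and its part in these differences was not tested.

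Among the 179 tested LINC gene sums, 12 were called higher and 3 called lower in A549/DDP cells. Values were compared as log2(FPKM + 1) with limma, and a call needed a Benjamini-Hochberg adjusted p under 0.01 over all 10591 tested gene sums and a log2 fold change beyond 1 in either direction. The called members were 6.70% and 1.68% of the LINC sums, beside 1.39% and 0.963% of all tested sums. At an adjusted p under 0.05 by the same test and with the same fold limit, 19 LINC sums (10.6%) were higher and 7 (3.91%) were lower, beside 4.47% and 2.6% of all sums. In 58 LINC sums (32.4%) all 3 A549/DDP libraries lay above all 3 A549 libraries, beside 21.8% of all sums, and in 40 (22.3%) all lay below, beside 10.4%. The median log2 fold change was 0.15 over the LINC sums and 0.17 over all sums. Quantile normalization and median-ratio scaling brought the median of all sums to 0.01 and 0.02, and left 7 and 6 LINC sums higher with 4 and 3 lower. The corresponding counts over all sums were 105 and 94 higher with 123 and 119 lower, against 147 higher and 102 lower in the values as deposited. Without 1 library the number of higher LINC sums was 4 (A549 replicate 1), 6 (A549/DDP replicate 3) or 5 (each of the others), and 3 were lower each time. Over all sums the same runs left 34 to 68 higher and 23 to 60 lower. The added 1 FPKM makes the fold change of a gene with low values smaller than the ratio of its FPKM.

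**Figure D1:**
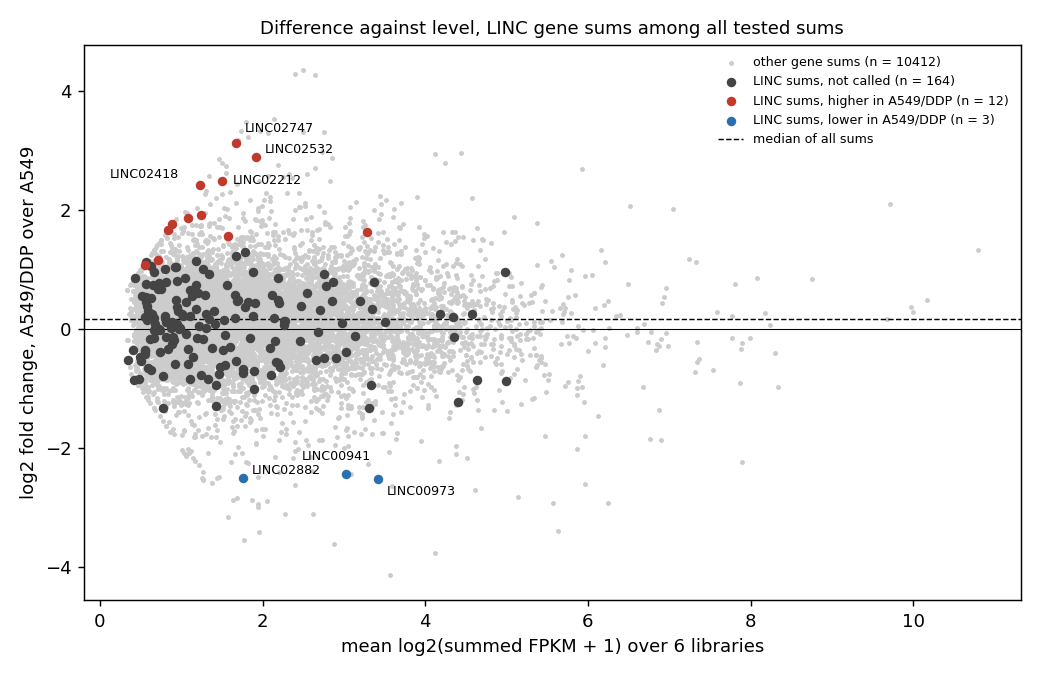
Log2 fold change of A549/DDP over A549 against the mean log2(summed FPKM + 1) of 6 libraries for each tested gene sum, with LINC sums as large points (red higher, blue lower, black not called), other sums in grey and the median of all sums as a dashed line. The 12 higher LINC sums lie mostly at low levels on the left, with LINC01515 farther to the right, and the 3 lower ones lie near a log2 fold change of -2.5.

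A member can pass the 0.5 FPKM filter through only 1 of the lines, and then it has to differ. No A549 library reached 0.5 FPKM in 22 tested LINC sums (12.3%), beside 326 of all tested sums (3.08%). Of the 12 higher LINC calls, 8 were among these 22, and of the 147 higher calls over all sums, 60 were among the 326. The other 4 higher calls were LINC02532, LINC02802, LINC01515 and LINC02313. LINC02532 (0.632 FPKM) and LINC02802 (0.777 FPKM) reached 0.5 FPKM in only 1 A549 library. These genes too therefore met the filter through the A549/DDP libraries, where they were high. No A549/DDP library reached 0.5 FPKM in 10 LINC sums (5.59%), beside 166 of all tested sums (1.57%). Of the 10, 0 were called by limma and 8 had an unadjusted p under 0.05, and of the 166, 41 were called lower. The 3 lower calls were among the 147 LINC sums with a library at 0.5 FPKM or more in both lines. Over all sums 10099 were of this kind, and 87 of them were called higher and 61 lower, beside 4 and 3 of the 147 LINC sums.

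Of the other lncRNA classes, genes with antisense symbols had 6 higher and 6 lower sums of 339 tested, and genes with divergent symbols had 1 and 1 of 150. The remaining lncRNA genes had 20 higher and 14 lower of 1209, and protein-coding genes, represented mostly by their non-coding transcripts, had 79 and 57 of 7487. These counts stand beside each other as a description and were not compared by a test.

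The 4 highest fold changes among the LINC sums belonged to genes that were nearly silent in A549 cells and kept their call under every alternative tried. LINC02747 (chr11:69475567-69481545, minus strand, GRCh38) lies between MYEOV and the cyclin D1 gene CCND1, and it had 7.18, 9.14 and 9.11 FPKM in A549/DDP cells, against 0.145, 0 and 0.0953 FPKM in A549 cells. Its single listed transcript was high in each A549/DDP library and near 0 in each A549 library, with no overlap. Its log2 fold change was 3.13 (standard error, SE, 0.23, adjusted p = 0.000458 by limma). LINC02532 (chr6:106705328-106788148, minus strand), with 12 listed transcripts, had a sum of 9.78, 7.78 and 10.7 FPKM in A549/DDP cells, against 0.232, 0.321 and 0.632 FPKM in A549 cells. The groups did not overlap, and the A549/DDP mean was 23.8 times the A549 mean (9.42 ± 1.49 and 0.395 ± 0.210 FPKM, SD, n = 3 each). The log2 fold change was 2.90 (SE 0.24, adjusted p = 0.000762 by limma).

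LINC02212 (chr5:10493291-10502728, minus strand) had 5.82, 6.00 and 5.36 FPKM in A549/DDP cells, against 0.181, 0.125 and 0.272 FPKM in A549 cells. The libraries of each line lay close together and the lines were far apart, at means of 5.73 ± 0.330 and 0.192 ± 0.0742 FPKM (SD, n = 3 each) and a log2 fold change of 2.50 (SE 0.21, adjusted p = 0.000794 by limma). LINC02418 (chr12:130032928-130045057, minus strand) is a LINC gene drawn in a network of the study and is known from colorectal cancer. It was not among the lncRNAs that the paper measured by qRT-PCR. Its sum was 3.78, 4.68 and 4.92 FPKM in A549/DDP cells, against 0.0229, 0 and 0.0219 FPKM in A549 cells. Every A549/DDP library was above every A549 library, and A549 cells were near 0 throughout. The log2 fold change was 2.42 (SE 0.21, adjusted p = 0.000801 by limma).

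LINC02732 (chr11:110355130-110407613, plus strand) and LINC01697 (chr21:28048404-28137611, plus strand) were listed at 0 in all 3 A549 libraries, so no fold change is given. LINC02732 had 2.61, 2.10 and 2.59 FPKM in A549/DDP cells (adjusted p = 0.00157 by limma). LINC01697 had 2.39, 2.60 and 1.67 FPKM in A549/DDP cells (adjusted p = 0.00264 by limma). Both sums were thus present in each A549/DDP library, at low levels. The call of LINC02732 was lost without A549 replicate 1 (adjusted p = 0.01003), and that of LINC01697 was lost in 5 of 6 runs that left out 1 library (adjusted p up to 0.0144), the exception being the run without A549/DDP replicate 3.

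**Figure D2:**
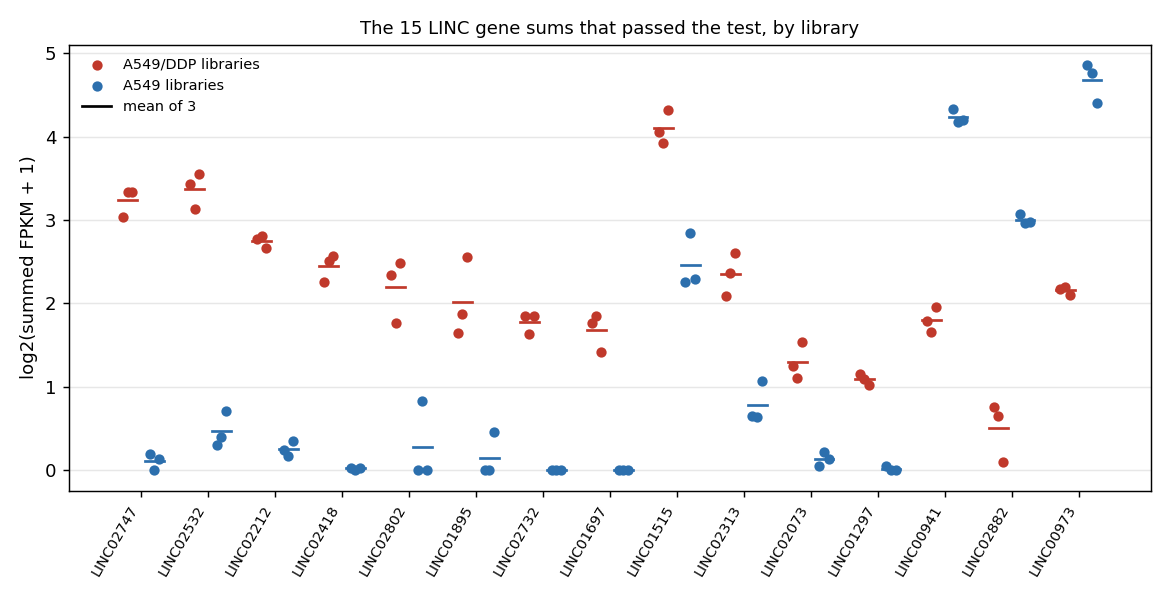
Log2(summed FPKM + 1) of the 15 called LINC gene sums in each library, with A549/DDP libraries in red on the left and A549 libraries in blue on the right of each gene, and a line at the mean of 3 log2 values. The 12 genes from LINC02747 to LINC01297 were higher in A549/DDP cells, LINC00941, LINC02882 and LINC00973 were lower, and the libraries of the lines do not overlap in any of the 15.

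The other 6 higher sums lost their call without any single library, at adjusted p between 0.0101 and 0.0484 by limma. LINC01515 (chr10:65570338-65880289, plus strand), the only abundant gene among them, had 15.7, 14.2 and 19.0 FPKM in A549/DDP cells, against 3.76, 6.20 and 3.92 FPKM in A549 cells. It was present in both lines and higher in each A549/DDP library, with means of 16.3 ± 2.47 and 4.63 ± 1.36 FPKM (SD, n = 3 each) and a log2 fold change of 1.64 (SE 0.26, adjusted p = 0.00879 by limma). LINC02313 (chr14:31944853-31950382, plus strand) had 3.27, 4.13 and 5.09 FPKM in A549/DDP cells, against 0.575, 0.554 and 1.09 FPKM in A549 cells. The lines did not overlap, and the log2 fold change was 1.57 (SE 0.25, adjusted p = 0.00910 by limma).

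LINC01895 (chr18:3347696-3383532, minus strand) had 2.14, 2.65 and 4.86 FPKM in A549/DDP cells, against 0, 0 and 0.373 FPKM in A549 cells. The spread among A549/DDP libraries was wide, and the log2 fold change was 1.87 (SE 0.29, adjusted p = 0.00789 by limma). LINC02073 (chr17:51336646-51521401, plus strand) had 1.39, 1.16 and 1.91 FPKM in A549/DDP cells, against 0.0370, 0.163 and 0.102 FPKM in A549 cells. It stayed under 2 FPKM even where it was higher, at a log2 fold change of 1.17 (SE 0.19, adjusted p = 0.00993 by limma).

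The remaining 2 higher sums come from sequence that is repeated in the genome. Of the annotated exon sequence of LINC02802 (chr1:144227029-144250326, minus strand), 100% of the stretches of 31 bases occur elsewhere in the main chromosomes of hg38, in a median of 5 copies in all. Of that of LINC01297 (chr14:19344578-19384587, minus strand), 87.7% do, in a median of 3 copies. LINC02802 had 4.07, 2.40 and 4.597 FPKM in A549/DDP cells, against 0, 0.777 and 0 FPKM in A549 cells (log2 fold change 1.92, adjusted p = 0.00993 by limma). LINC01297 had 1.22, 1.14 and 1.03 FPKM in A549/DDP cells, against 0.0353, 0 and 0 FPKM in A549 cells (log2 fold change 1.07, adjusted p = 0.00650 by limma). The lines did not overlap in either gene, but which copy the reads came from is uncertain, and how reads with several matches were shared out is not given in the sources used here. In the other 13 called genes the share was 0% to 32.4%, highest in LINC02732, and it was 0% in LINC02313 and LINC00973.

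All 3 lower LINC sums were well expressed in A549 cells and kept their call under every alternative tried. LINC00973 (chr3:98981058-98983096, plus strand), with a single listed transcript, had 3.51, 3.60 and 3.30 FPKM in A549/DDP cells, against 28.0, 26.2 and 20.1 FPKM in A549 cells. The lines did not overlap, and the A549/DDP mean was 0.140 of the A549 mean (3.47 ± 0.154 and 24.8 ± 4.15 FPKM, SD, n = 3 each). The log2 fold change was -2.51 (SE 0.23, adjusted p = 0.000929 by limma). LINC00941 (chr12:30755167-30802602, plus strand), which has been studied in lung and other carcinomas, had 2.47, 2.15 and 2.89 FPKM in A549/DDP cells, against 19.2, 17.1 and 17.3 FPKM in A549 cells. Its mean was also 0.140 of that in A549 cells (2.50 ± 0.369 and 17.9 ± 1.15 FPKM, SD, n = 3 each), with no overlap between the lines. The log2 fold change was -2.43 (SE 0.22, adjusted p = 0.000912 by limma).

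LINC02882 (chr12:73820315-74402600, minus strand) had 0.695, 0.572 and 0.0728 FPKM in A549/DDP cells, against 7.38, 6.79 and 6.90 FPKM in A549 cells. A549/DDP replicate 3 was the lowest library, and the A549 libraries lay close together. The means were 0.447 ± 0.330 and 7.03 ± 0.316 FPKM (SD, n = 3 each), a ratio of 0.0636 and a log2 fold change of -2.50 (SE 0.25, adjusted p = 0.00140 by limma).

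The called genes were scattered over the genome. The 15 genes lie on 11 chromosomes, and no pair of them had midpoints within 1 Mb. Several overlap other lncRNA genes on the same strand, whose reads could not be kept apart by strand alone. LINC02212 overlaps ENSG00000249166 at its 3′ end, and that gene had 11.5, 11.9 and 13.3 FPKM in A549/DDP cells, against 0.204, 0.364 and 0.452 FPKM in A549 cells. It too was higher in each A549/DDP library (log2 fold change 3.31, adjusted p = 0.000377 by limma). LINC02418 overlaps ENSG00000261650, which had 0.632, 0.740 and 2.01 FPKM in A549/DDP cells and was listed at 0 in A549 cells (adjusted p = 0.0379 by limma). LINC02882 overlaps ENSG00000257183, which was not tested but lay lower in each A549/DDP library (0, 0.191 and 0.0424 FPKM) than in any A549 library (1.00, 1.04 and 0.494 FPKM). LINC00973 lies inside ENSG00000239462, which had 0.954, 0.425 and 0.342 FPKM in A549/DDP cells, against 0.363, 1.46 and 1.35 FPKM in A549 cells. That gene overlapped between the lines (log2 fold change -0.36, adjusted p = 0.452 by limma). ENSG00000246331, which overlaps LINC00941 but ends before its tested transcripts, was at or near 0 in all libraries. LINC00941 also overlaps ENSG00000285517 (chr12:30795458-30879268) on the same strand, which has no listed values. The span of ENSG00000285517 holds the tested LINC00941 transcripts, so its reads could not be kept apart from theirs by strand alone.

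The protein-coding genes nearest to the 15 called genes on each side, a choice made after other values had been seen, are represented mostly by non-coding transcripts. Of 31 such genes, overlapping ones included, 17 were listed and 11 were tested. Of the 11, 0 were called at an adjusted p under 0.01 by limma, beside 1.39% higher and 0.963% lower of all tested gene sums. An unadjusted p under 0.05 was seen in 3 of the 11, beside 27.1% of all tested gene sums. At an adjusted p under 0.05 with a log2 fold change beyond 1 in either direction, 2 passed, beside 4.47% higher and 2.6% lower of all tested gene sums. Whether neighbours changed together was not tested. TGIF1, a homeodomain repressor that acts on TGF-beta target genes, lies 28.1 kb from LINC01895 and had 4.62, 2.67 and 4.87 FPKM in A549/DDP cells, against 0.984, 1.28 and 1.32 FPKM in A549 cells. Its libraries did not overlap (log2 fold change 1.18, standard error 0.26, adjusted p = 0.0305 by limma). DCBLD2, a membrane receptor gene 79.4 kb from LINC00973, had 30.4, 23.2 and 38.2 FPKM in A549/DDP cells, against 71.6, 70.5 and 50.9 FPKM in A549 cells. It was lower in each A549/DDP library (log2 fold change -1.06, standard error 0.26, adjusted p = 0.0432 by limma), as LINC00973 was. CCND1, 160 kb from LINC02747, had 5.73, 6.09 and 4.88 FPKM in A549/DDP cells, against 1.83, 3.94 and 1.30 FPKM in A549 cells, and it missed the threshold (log2 fold change 1.04, adjusted p = 0.0739 by limma). MYEOV, on the other side of LINC02747, had 30.4, 29.6 and 31.6 FPKM in A549/DDP cells, against 35.3, 35.7 and 47.3 FPKM in A549 cells. It was lower in each A549/DDP library but missed the threshold (log2 fold change -0.35, adjusted p = 0.350 by limma), as did ROPN1L beside LINC02212 (log2 fold change -0.31, adjusted p = 0.277). UTP18 beside LINC02073 was higher in each A549/DDP library and missed it too (log2 fold change 0.59, adjusted p = 0.189 by limma). RDX beside LINC02732 overlapped between the lines (log2 fold change 1.43, adjusted p = 0.253 by limma). QRSL1, NUBPL and ARHGAP5 also overlapped, at log2 fold changes of 0.15 to 0.26. CAPRIN2, which LINC00941 overlaps on the opposite strand, had 2.71, 2.43 and 3.06 FPKM in A549/DDP cells, against 5.16, 2.88 and 2.68 FPKM in A549 cells, with overlapping groups (log2 fold change -0.26, adjusted p = 0.585 by limma).

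At the level of single transcripts, 5 LINC transcripts were higher (1.92%) and 3 were lower (1.15%) of 260 tested, beside 0.353% and 0.198% of all 20663 tested transcripts. At an adjusted p under 0.05 by limma and with the same fold limit, 15 (5.77%) were higher and 8 (3.08%) were lower, beside 2.15% and 1.08% of all. The 5 higher transcripts belonged to LINC02747, LINC02212, LINC02532, LINC02418 and LINC02732, and the 3 lower ones to LINC02882, LINC00941 and LINC00973, so that each of the 8 genes was called at both levels. All 5 higher ones were among 28 LINC transcripts (10.8%) that passed the filter through A549/DDP cells only and so had to differ. Over all transcripts 1036 (5.01%) were of this kind, with 51 of the 73 higher calls. Of the 3 lower ones, 1 was among 9 (3.46%) that passed through A549 cells only. Over all transcripts there were 398 of these (1.93%), with 26 of the 41 lower calls. All 8 transcript calls were lost without any single library, when limma gave 73 to 93 LINC transcripts an unadjusted p under 0.05. Over all transcripts the same runs left 0 to 2 higher and 1 to 5 lower, against 73 and 41 with 6 libraries.

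Within a gene the transcripts could move alike. The called transcript of LINC02532 (chr6:106770126-106775004) had 3.86, 3.28 and 4.75 FPKM in A549/DDP cells, against 0.0864, 0.0767 and 0.213 FPKM in A549 cells, and it made up 42.1% of the gene sum in A549/DDP cells. The lines did not overlap (log2 fold change 2.13, adjusted p = 0.00596 by limma). Its 2 other tested transcripts also had each A549/DDP library above each A549 library, at adjusted p of 0.0119 and 0.0314 by limma. The called LINC00941 transcript (chr12:30795931-30802711) had 0.900, 1.47 and 1.39 FPKM in A549/DDP cells, against 10.6, 10.9 and 12.2 FPKM in A549 cells. It was lower in each A549/DDP library (log2 fold change -2.45, adjusted p = 0.00595 by limma), and the 2 other LINC00941 transcripts had log2 fold changes of -1.14 and -1.64 that did not pass the adjusted p of 0.01. All 7 tested LINC01515 transcripts had every A549/DDP library above every A549 library, at log2 fold changes of 0.59 to 1.42, but 0 of them passed the adjusted p of 0.01 by limma, and all 7 had an unadjusted p under 0.05. LINC02418-202 had 3.19, 2.78 and 3.52 FPKM in A549/DDP cells, against 0.0229, 0 and 0.0219 FPKM in A549 cells. It did not overlap between the lines (log2 fold change 2.03, adjusted p = 0.00510 by limma), and LINC02418-201, whose start is that of the printed RefSeq window, had 0.594, 1.91 and 1.40 FPKM in A549/DDP cells and was listed at 0 in A549 cells (adjusted p = 0.0415).

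Transcripts of LINC00662, a gene studied as an oncogenic lncRNA, differed in direction. The most abundant of its 7 tested transcripts (chr19:27715786-27793394) had 6.74, 9.89 and 7.26 FPKM in A549/DDP cells, against 30.4, 27.2 and 26.9 FPKM in A549 cells. The groups did not overlap, and the transcript made up 35.3% of the gene sum in A549/DDP cells and 66.6% in A549 cells (log2 fold change -1.72, standard error 0.28, adjusted p = 0.0221 by limma). The transcript at chr19:27778640-27793031 had 1.68, 0.872 and 1.45 FPKM in A549/DDP cells, against 0.601, 0.308 and 0.133 FPKM in A549 cells. It was higher in each A549/DDP library, but its log2 fold change of 0.79 missed the threshold (SE 0.23, adjusted p = 0.105 by limma). LINC00662 was the only gene with a pair of tested LINC transcripts at unadjusted p under 0.05 by limma in opposite directions. The spans of these transcripts overlap and the listed values do not show their exons, so the split of reads among them is uncertain.

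**Figure D3:**
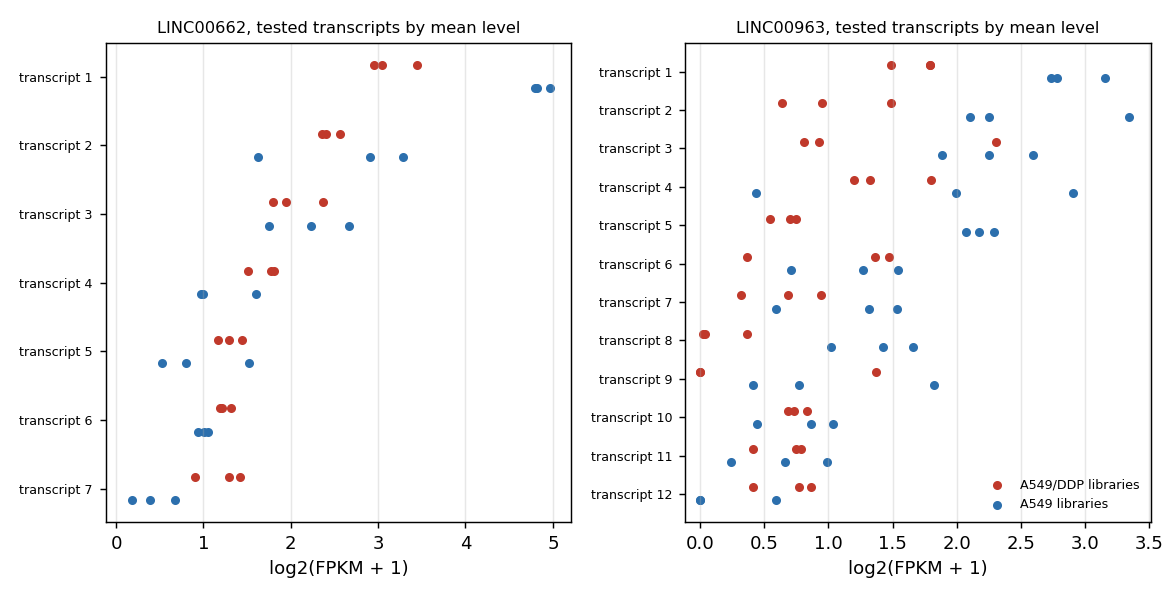
Log2(FPKM + 1) of each library for the tested transcripts of LINC00662 (left, 7 transcripts) and LINC00963 (right, 12 transcripts), ordered from the most abundant at the top, with A549/DDP libraries in red above A549 libraries in blue. In LINC00662 the top transcript lies lower in A549/DDP cells and the bottom one higher, and in LINC00963 the A549/DDP libraries lie below the A549 libraries without overlap in 4 transcripts.

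The most abundant LINC genes were expressed in both lines, and their differences were mostly smaller. LINC02582 had the highest sum in A549/DDP cells, at 44.2, 42.5 and 42.9 FPKM, against 25.0, 20.8 and 19.3 FPKM in A549 cells. The lines did not overlap, but the log2 fold change of 0.97 (SE 0.21, adjusted p = 0.0292 by limma) was under the limits of the call. LINC00662 had the highest sum in A549 cells, with 20.4, 24.1 and 23.1 FPKM in A549/DDP cells, against 39.0, 47.2 and 40.7 FPKM in A549 cells. It was lower in each A549/DDP library (log2 fold change -0.88, standard error 0.21, adjusted p = 0.0398 by limma). LINC00963, a lncRNA first studied in prostate cancer, had 14.3, 10.3 and 14.6 FPKM in A549/DDP cells, against 37.7, 33.4 and 24.4 FPKM in A549 cells. The groups did not overlap, and the log2 fold change of -1.22 (SE 0.26, adjusted p = 0.0262 by limma) passed the looser threshold only. Of its 12 tested transcripts, 10 had a log2 fold change under 0, and LINC00963-203 had 0.455, 0.675 and 0.628 FPKM in A549/DDP cells, against 3.21, 3.89 and 3.51 FPKM in A549 cells (log2 fold change -1.52, adjusted p = 0.0151 by limma).

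LINC00511, described as an oncogenic partner of the chromatin repressor EZH2 in lung cancer, had 17.6, 14.95 and 20.7 FPKM in A549/DDP cells, against 31.8, 31.6 and 34.2 FPKM in A549 cells. Each A549/DDP library was below each A549 library (log2 fold change -0.85, standard error 0.22, adjusted p = 0.049996 by limma). LINC02864 (log2 fold change 0.25) and LINC02987 (0.25) had every A549/DDP library above every A549 library and did not pass (adjusted p of 0.507 and 0.472 by limma). LINC01234 (log2 fold change -0.13) and LINC00707 (0.21) overlapped between the lines (adjusted p of 0.735 and 0.579 by limma). LINC00973 and LINC01515 completed the 10 most abundant LINC sums. Of the 10, 4 had all A549/DDP libraries above and 4 had all of them below the A549 libraries, beside 21.8% and 10.4% of all tested sums.

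**Figure D4:**
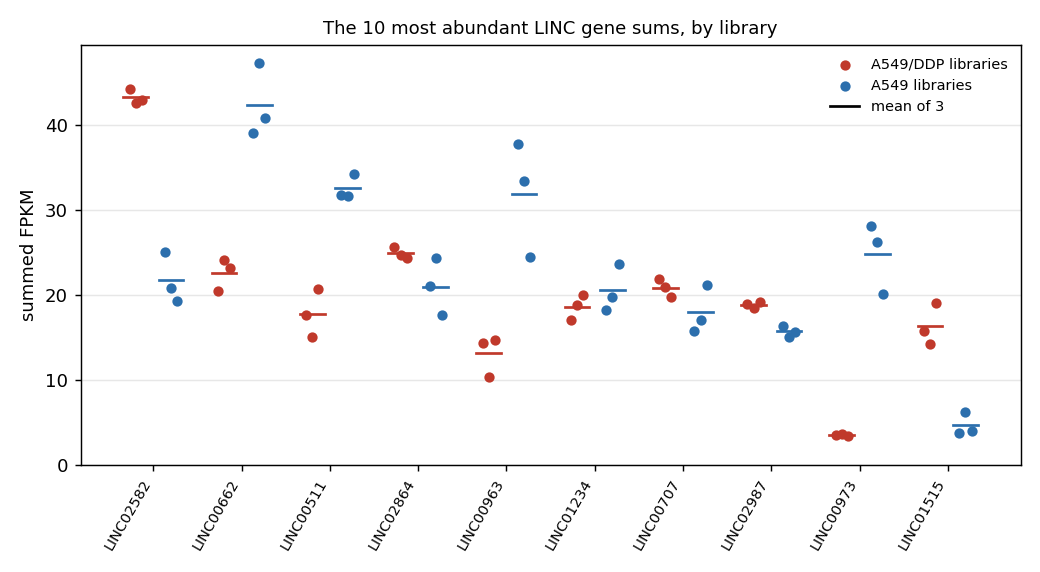
Summed FPKM of the 10 most abundant LINC genes in each library, with A549/DDP libraries in red on the left and A549 libraries in blue on the right of each gene, and a line at the mean of 3. LINC02582 and LINC01515 lie higher in A549/DDP cells, LINC00662, LINC00511, LINC00963 and LINC00973 lie lower, and LINC01234 and LINC00707 overlap between the lines.

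With the log2 fold change still beyond 1 in either direction, another 7 LINC sums were higher and 4 were lower at an adjusted p under 0.05, but not under 0.01, by limma. The higher ones were LINC01474, LINC02762, LINC01687, LINC01060, LINC02593, LINC02609 and LINC00887, with adjusted p between 0.0195 and 0.0442. LINC02762 had 2.92, 4.53 and 4.39 FPKM in A549/DDP cells, against 1.16, 1.24 and 0.896 FPKM in A549 cells (log2 fold change 1.22). LINC01474 had 5.65, 3.58 and 4.23 FPKM in A549/DDP cells, against 0.740, 2.45 and 0.771 FPKM in A549 cells, where A549 replicate 2 stood above the other A549 libraries (log2 fold change 1.30). The lines did not overlap in any of the 7.

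The lower ones, besides LINC00963, were LINC00339, LINC00632 and LINC02889. LINC00339, a gene beside CDC42, had 5.05, 6.84 and 4.22 FPKM in A549/DDP cells, against 17.8, 15.1 and 11.8 FPKM in A549 cells (log2 fold change -1.32, adjusted p = 0.0210 by limma). LINC00632, whose locus gives rise to the circular RNA CDR1as, had 0.715, 1.14 and 0.390 FPKM in A549/DDP cells, against 2.49, 2.80 and 4.56 FPKM in A549 cells (log2 fold change -1.29, adjusted p = 0.0279 by limma), and these values are of its listed linear transcripts only. Both genes were lower in each A549/DDP library. LINC02889 had 0.147, 0.0430 and 0.0480 FPKM in A549/DDP cells, against 1.85, 2.60 and 0.925 FPKM in A549 cells (log2 fold change -1.33, adjusted p = 0.0175 by limma), so it was near 0 in A549/DDP cells and low in A549 cells.

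Some members were listed at 0 in every library of 1 line and at 0.5 FPKM or more in every library of the other. Besides LINC02732 and LINC01697, the sums of LINC01687 (1.75, 0.600 and 1.41 FPKM) and LINC02315 (0.626, 0.937 and 0.889 FPKM) had this pattern in A549/DDP cells and were listed at 0 in A549 cells. LINC02454 was listed at 0 in A549/DDP cells and had 0.616, 0.763 and 1.04 FPKM in A549 cells. LINC01687, LINC02315 and LINC02454 did not pass the adjusted p of 0.01 (0.0204, 0.0150 and 0.0173 by limma). Single transcripts showed it too. LINC01119-204 had 1.04, 0.567 and 0.921 FPKM in A549/DDP cells and was listed at 0 in A549 cells (adjusted p = 0.0294 by limma), and a LINC01569 transcript (chr16:4246374-4251498) was listed at 0 in A549/DDP cells and had 1.53, 1.20 and 0.512 FPKM in A549 cells (adjusted p = 0.0431 by limma). LINC02532-211, LINC02418-201, LINC02315-201 and LINC01697-201 were likewise listed at 0 in all A549 libraries.

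Of 16 LINC genes that have been studied in lung cancer, 13 were listed and 10 were tested. Of these 10, 0 were higher by limma, also at an unadjusted p under 0.05, beside 1.39% of all tested sums called higher. LINC00941 was called lower, beside 0.963% of all sums. At an adjusted p under 0.05 LINC00963 was added with the fold limit (2.6% of all sums), and LINC00511 had a smaller log2 fold change than that limit. Their median log2 fold change was -0.17, beside 0.17 over all tested sums. Summed over the list, the 13 listed genes had 85.5 to 97.8 FPKM in A549/DDP libraries and 138 to 142 FPKM in A549 libraries. The largest differences between line means were in LINC00963 (13.1 FPKM in A549/DDP and 31.8 in A549 cells), LINC00941 (2.50 and 17.9) and LINC00511 (17.8 and 32.5). Of the tested genes, LINC00707, LINC00472 and LINC01116 had higher means in A549/DDP cells. Besides those already given, LINC00472, described as a tumour suppressor in breast cancer, had 4.63, 5.54 and 5.99 FPKM in A549/DDP cells, against 3.19, 5.37 and 3.32 FPKM in A549 cells, with overlapping groups (adjusted p = 0.375 by limma). LINC00857, LINC00173 and LINC01116 also overlapped between the lines (adjusted p of 0.788, 0.661 and 0.825 by limma). LINC00261, a lncRNA beside the endoderm factor gene FOXA2, had 0.353, 0.218 and 0.238 FPKM in A549/DDP cells, against 0.657, 0.780 and 0.654 FPKM in A549 cells. It was lower in each A549/DDP library, but its log2 fold change of -0.42 missed the threshold (adjusted p = 0.137 by limma).

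LINC genes that mark other tissues were absent or scarce in both lines. Of 4 liver-enriched LINC genes 3 were at 0 in all libraries, and the list summed to at most 0.0343 FPKM in A549/DDP libraries and 0.145 FPKM in A549 libraries. Of 7 lymphocyte LINC genes 4 were at 0 throughout, and the list summed to 0.379 to 0.666 FPKM in A549/DDP libraries and 0.296 to 0.461 FPKM in A549 libraries, most of it from LINC00926. Both neural LINC genes were at 0, and LINC00518 of melanocytes was at most 0.104 FPKM. Of the pluripotent cell markers LINC00458 was at 0, and LINC00678 had 0.466, 0.757 and 0.530 FPKM in A549/DDP cells, against 0.858, 0.355 and 0.630 FPKM in A549 cells, with overlapping groups (adjusted p = 0.963 by limma).

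Marker genes of epithelial and other cells were read from their listed transcripts, which are mostly non-coding. The 6 epithelial genes summed to 2077 to 2656 FPKM in A549/DDP libraries, most of it from KRT8, and to 859 to 1149 FPKM in A549 libraries. In A549 cells KRT8 had 535, 268 and 455 FPKM, and KRT7 had 494, 521 and 181 FPKM. KRT8 was the 1 called gene of the 5 tested (log2 fold change 2.11, adjusted p = 0.00423 by limma). CDH1 and KRT18 also had each A549/DDP library above each A549 library (log2 fold changes 2.06 and 0.76, adjusted p of 0.0264 and 0.123 by limma). KRT7 and EPCAM overlapped between the lines (log2 fold changes -0.40 and -0.28), and KRT19 stayed under 0.5 FPKM and was not tested. The blood cell genes summed to at most 0.138 FPKM in A549/DDP libraries and 0.112 FPKM in A549 libraries, with PTPRC at 0. The endothelial genes PECAM1 and VWF were at 0, and the 4 fibroblast genes summed to 0.365 to 0.964 FPKM in A549/DDP libraries and 0.227 to 0.464 FPKM in A549 libraries. The part of the epithelial difference in the LINC results was not tested.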

How the data were processed

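The study sequenced rRNA-depleted, strand-specific libraries of A549/DDP and A549 cells, 3 each. The authors aligned reads to hg38 with HISAT2 and deposited FPKM per transcript. The paper names Cufflinks for this step and the submitters' processing notes name StringTie and no versions, so which tool made the values, and whether it used strand, is uncertain. Depth per library is unknown, which limits the precision of low values. Gene types and transcript names came from GENCODE 44: 3463 of the 4678 LINC transcripts (74.0%) matched an annotated span, and 66 share gene and span with another. FPKM was summed per gene ID. Features that reached 0.5 FPKM in 3 or more of the 6 libraries were tested as log2(FPKM + 1) with limma 3.58.1 (R 4.3.3; lmFit, eBayes with trend, two-sided), adjusted by Benjamini-Hochberg over all features. The code was tested on simulated data. Exon copies were counted as exact matches of 31 bases on both strands. Tables and figures used Python 3.11.15, pandas 2.3.3, numpy 2.4.6 and matplotlib 3.10.9.

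Members named are those called at an adjusted p under 0.01 or 0.05 with an absolute log2 fold change above 1, the 10 most abundant, those listed at 0 in 1 line only, genes with transcripts in opposite directions, tested members of the lists and LINC02418. The members and lists were chosen with earlier results of these data known.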

Additional observations from a re-analysis of the deposited data

How the results depend on the processing

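All alternatives were set with earlier results of these data known, and the cause of each shift was not tested. With a pseudocount of 0.1, 7 LINC gene sums were higher, beside 114 over all gene sums. With no filter on low values, 4 LINC gene sums were higher, and 0 LINC transcripts were higher and 0 lower (199 of 1298 at an unadjusted p under 0.05 by limma). Over all features this setting left 31 gene sums higher and 28 lower, and 3 transcripts higher and 1 lower. A filter of 2 FPKM in 3 libraries gave 5 LINC transcripts lower, beside 62 over all transcripts, and the sums of LINC01697, LINC02073 and LINC01297 were not tested there. After quantile normalization 7 and after median-ratio scaling 6 LINC gene sums were higher, beside 105 and 94 over all gene sums. At an adjusted p under 0.05 by limma with the same fold limit, 15 transcripts were higher and 8 lower, and 19 gene sums were higher and 7 lower. Leaving out 1 library in turn, with the same features tested, gave 4 to 6 gene sums higher and 3 lower each time, and 0 transcripts in either direction, with 73 to 93 of 260 at an unadjusted p under 0.05 by limma. With the replicate number as a block, 5 gene sums were higher and 3 lower, and 0 transcripts were higher and 0 lower (79 at an unadjusted p under 0.05 by limma). No pairing by replicate number was visible in the values, which cannot exclude one. Deviations of same-numbered libraries from their line means correlated at -0.0456 to 0.00412 over gene sums and at -0.0333 to 0.0149 over transcripts. Over all gene sums the block left 36 higher and 35 lower, against 147 and 102 without it. Over all transcripts it left 0 higher and 1 lower, against 73 and 41. The sums of LINC02747, LINC02532, LINC02212, LINC02418, LINC00941, LINC02882 and LINC00973 kept their call in every setting above. Over 62 named sums and transcripts and all settings, 618 values stayed on their side of the threshold, 138 lost and 29 gained a call, and 0 reversed. The reads behind low FPKM values are unknown, which limits their precision.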
